A study of Mus musculus with 11 samples.

Results

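The cytosolic ribosome is built from ribosomal RNA and a set of small basic proteins, and the genes of those proteins were followed here in 2 cell fractions of mouse back skin. Members were the genes whose only symbol in the platform annotation was that of a cytosolic ribosomal protein (Rpl or Rps with a number, or Rpsa, Rplp0, Rplp1 or Rplp2), with the S6 kinase genes left out. The rule found 49 of the 18193 genes measured, carried by 105 probe sets, and did not use any measured difference between the fractions. A probe set is a group of short array probes read as 1 value, and for a gene with several, the brightest one by mean log2 value across the 11 arrays was taken. Of the 49 members, 46 were bright enough to be tested. By their symbols, 22 were counted to the small subunit, 22 to the large subunit and 2 to its acidic stalk.

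CD34+ keratinocytes from K5-myrAkt(L84) mice (5 arrays) were compared with CD34- keratinocytes of the same transgenic line (6 arrays). Both fractions came from the same kind of skin by labelling with an anti-CD34 antibody and magnetic beads, and all 11 samples carried the transgene, an activated (myristoylated) Akt driven by the keratin 5 promoter, which is active in basal cells of epidermis and follicle. Mice without the transgene were not analysed here, so that no value measures an effect of Akt. The cell type label calls both fractions follicle stem cells, whereas the design text gives that name to the CD34+ cells only. The labels give neither age nor hair cycle stage, nor whether each array stands for a separate mouse, and p-values then measure the spread between these samples, which may be technical.

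Ribosomal proteins are needed in nearly equal amounts, and their messengers are among the most abundant of any growing cell. In mammals most of these messengers start with a C followed by a run of pyrimidines, the terminal oligopyrimidine (TOP) tract, through which the mTOR pathway downstream of Akt sets how well they are translated. How well a messenger is translated cannot be seen in an array signal, which measures messenger level. Many ribosomal protein genes also have processed pseudogene copies in the mouse genome, so that probes for them can share sequence with other loci.

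The annotated starts of the members were examined first, because the TOP tract is the sequence feature that ties this gene family to mTOR. RefSeq start regions (GRCm38.p6) were found for 43 of the 49 members, with 51 annotated starts in all. A C followed by at least 4 pyrimidines stood within 20 bases of 36 of those 51 starts (70.6%), against 45.9% of the 32851 annotated starts of all genes. Runs that lay wholly before the start, outside a messenger that begins there, were counted too. The motif ACTTCCG, the core bound by Ets factors, stood on either strand in 25.5% of the member windows of 300 bases and in 6.42% of all windows. AAGATGGC, a YY1 core, stood in 7.84% of the member windows and 2.75% of all windows, and a TATA box (the 6 letters TATAAA) in 11.8% of the member windows and 13.6% of all windows. A match is a description of the letters at an annotated start and not a mapped site.

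The 40 bases around the start, 20 before it and 20 from it on, are shown for the 3 members that kept their call under both scalings of the arrays (Rps25, Rpl27a and Rpl37a), for 2 bright small-subunit members that did not (Rps18 and Rps28), and for Rps6, the ribosomal protein phosphorylated downstream of Akt and mTOR. Capitals mark the longest pyrimidine run found there, and a shorter one elsewhere in the window, as in Rps18, stays in lower case.
Rps25: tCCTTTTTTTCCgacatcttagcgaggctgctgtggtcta
Rpl27a: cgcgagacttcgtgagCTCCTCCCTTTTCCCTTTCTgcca
Rpl37a: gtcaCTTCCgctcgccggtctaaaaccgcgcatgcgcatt
Rps18: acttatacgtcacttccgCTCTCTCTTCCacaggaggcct
Rps28: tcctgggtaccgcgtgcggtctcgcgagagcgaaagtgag
Rps6: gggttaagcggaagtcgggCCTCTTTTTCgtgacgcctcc
Rps25 lies on the plus strand at chr9:44407694-44407733, Rpl27a on the plus strand at chr7:109519175-109519214 and Rpl37a on the plus strand at chr1:72711240-72711279. Rps18 lies on the minus strand at chr17:33955646-33955685, Rps28 on the minus strand at chr17:33824543-33824582 and Rps6 on the minus strand at chr4:86857348-86857387. The member that fell (Rps25) and the 2 that rose under both scalings (Rpl27a and Rpl37a) all had a run. Of these 3 runs only that of Rpl27a crossed the annotated start. Those of Rps25 and Rpl37a lay wholly before it, outside a messenger that begins there. The Rpl37a run was also part of an ACTTCCG motif. No run was found in the window of Rps28.

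The arrays differed in a way that touches every result on these bright genes. Control probe sets for actin read its messenger near the 3-prime and near the 5-prime end, and the log2 ratio of 3-prime to 5-prime signal grows with shorter RNA. This actin ratio was 5.25, 4.56, 3.97, 2.91 and 3.06 on CD34+ arrays 1 to 5, against a range of 2.19 to 2.76 on the CD34- arrays. By actin CD34+ arrays 1 to 3 stood apart from the other 8. The same ratio for Gapdh did not part the fractions, with 3.37, 3.62, 3.69, 2.96 and 2.99 on CD34+ arrays 1 to 5, against a range of 3.00 to 3.43 on the CD34- arrays: CD34+ arrays 2 and 3 were above that range, array 1 inside it and arrays 4 and 5 just below it. Markers of some other cells moved with the fraction too: 5 of 5 tested T cell markers were called lower in CD34+ as deposited, and 3 of 3 tested fibroblast markers higher. Among all tested genes 12.3% were called lower and 12.4% higher. Cd7, at a mean of 5.1 in CD34+, and Pdgfra, at 6.54 in CD34-, were bright enough to be tested only through the other fraction. The linear signal of all 6 measured T cell markers summed to 543 to 2553.5 on CD34+ arrays, against 3228.7 to 6320.5 on CD34- arrays. That of all 6 measured fibroblast markers summed to 3085.6 to 8701.1 on CD34+ arrays, against 486.9 to 855.6 on CD34- arrays. Of 6 tested markers of antigen-presenting cells 3 were higher in CD34+. Of 6 basal keratinocyte markers 1 was higher and 2 lower, and of 5 suprabasal markers 2 were higher and 1 lower. Of 5 melanocyte markers 0 were called. The 1 tested smooth muscle marker was higher, and no endothelial marker was bright enough to be tested. All 6 markers of the follicle bulge were higher in CD34+, Cd34 among them. Because the cells were sorted on CD34, the higher Cd34 signal reflects the sort and is no separate result. Cd34 and Lhx2 were bright enough to be tested only through the CD34+ arrays. The part of RNA length and of other cells in the results below was not tested beyond the fits named there, and in a bulk sample fewer cells of a type and less RNA per cell cannot be told apart.

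As deposited, ribosomal protein genes were more often higher than lower in CD34+ cells. Of the 46 tested, 10 were called higher (21.7%) and 1 lower (2.17%) by limma at an adjusted p under 0.05, against 12.4% higher and 12.3% lower among all 10916 genes tested. The median log2 difference, CD34+ minus CD34-, was 0.19 over the members and -0.0044 over all tested genes. Above 0 lay 35 of 46 members and 5419 of 10916 genes. After quantile normalization, which gives every array the same distribution of values, the median over the members was -0.04 against -0.06 over all genes. Under this scaling 18 of 46 members and 4876 of 10916 genes lay above 0. Then 3 members were called higher (6.52%) and 6 lower (13%), against 9% higher and 12% lower among all genes. With equal array medians as the scaling, the median over the members was -0.29 while that of all tested genes was -0.48. The sign of the difference changed between the deposited and the quantile-normalized values for 17 of the 46, and no member was called in opposite directions.

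**Figure D1:**
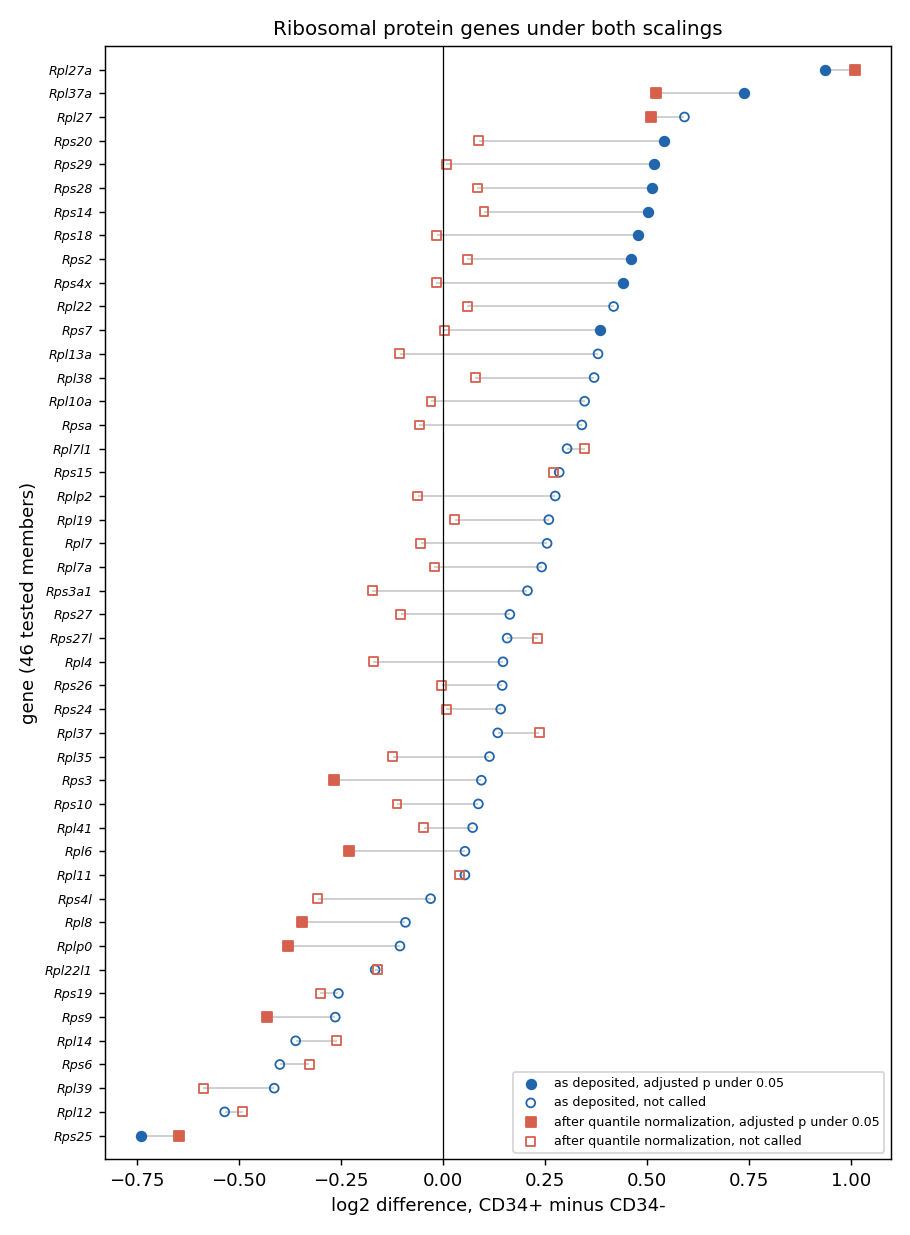
Log2 difference between CD34+ and CD34- arrays (x axis) for each of the 46 tested ribosomal protein genes (rows), as deposited (blue circles) and after quantile normalization (red squares), where filled symbols are genes called by limma at an adjusted p under 0.05. Rpl27a and Rpl37a are filled on the positive side and Rps25 on the negative side under both scalings, while 8 genes are filled for the deposited values only.

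The number of members called higher as deposited turned on single arrays. It was 5, 2 and 3 without CD34+ array 1, 2 or 3, against 14 and 11 without CD34+ array 4 or 5. Without CD34- array 1, 2, 4, 5 or 6 it was 6, 2, 2, 4 and 2, and without CD34- array 3 it stayed at 10. Rps25 was the 1 member called lower in each of these 11 fits. They called 1865 to 2789 of all 10916 genes, against 2697 with all 11 arrays. Without both CD34+ arrays 1 and 2, the arrays with the highest actin ratios, 1 member was called higher (Rpl37a) and 1 lower (Rps25). That fit called 1822 of all 10916 genes. When the actin ratio was added to the model as a covariate, limma called no member in either direction, but it also called only 126 of 10916 genes. All 5 CD34+ ratios lay above all 6 CD34- ratios, so that the ratio and the fraction can hardly be told apart.

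The median shift of the members differed between single arrays as deposited. The median member, relative to its CD34- mean, lay at 0.67, 0.22, 0.48, -0.06 and 0.02 on CD34+ arrays 1 to 5, against 0.16, -0.10, 0.21, -0.13, 0.16 and -0.27 on CD34- arrays 1 to 6. CD34+ arrays 1 and 3 lay clearly above every CD34- array, array 2 was level with the highest CD34- array, and arrays 4 and 5 lay inside the CD34- range. Not every member followed: 34, 29, 38, 16 and 26 of the 46 were above their CD34- mean on CD34+ arrays 1 to 5. From highest to lowest, the CD34+ arrays ranked 1, 3, 2, 5 and 4 by this shift, and 1, 2, 3, 5 and 4 by the actin ratio. A link between shift and ratio was not tested. After quantile normalization the same medians lay between -0.09 and 0.06 on CD34+ arrays and between -0.08 and 0.13 on CD34- arrays.

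**Figure D2:**
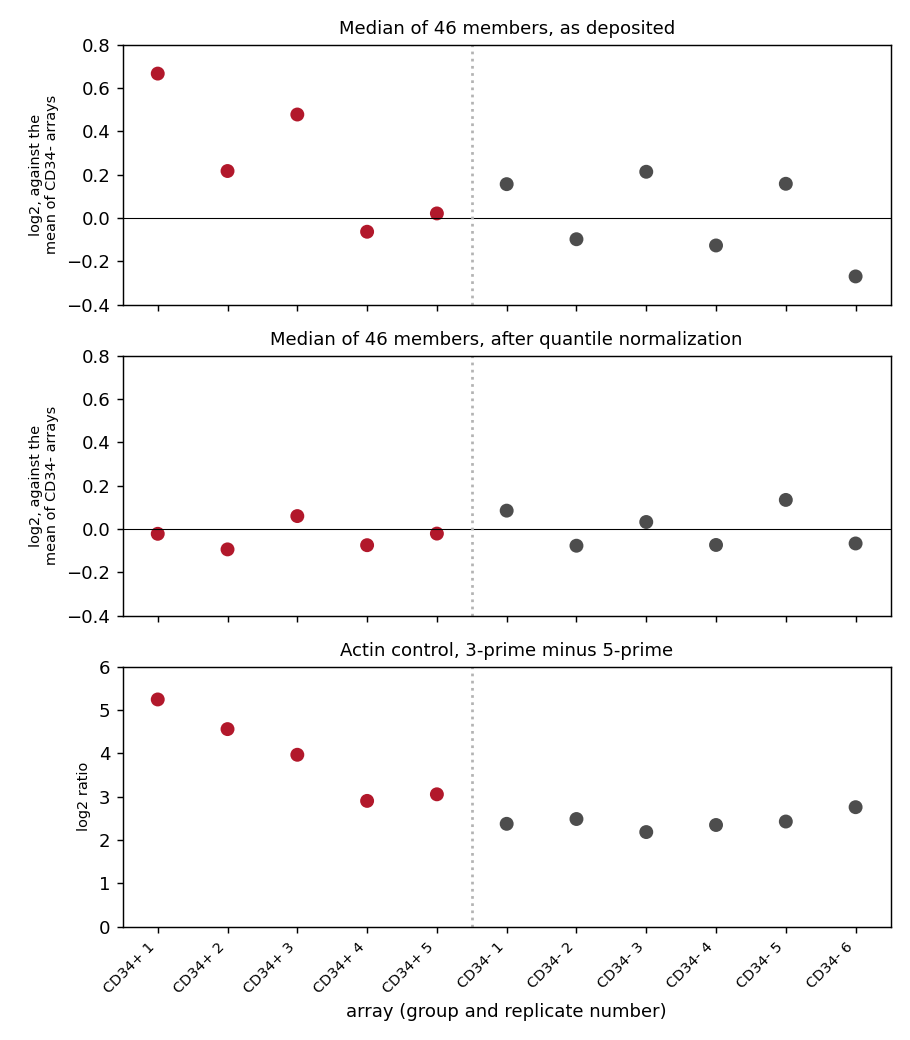
Median log2 shift of the 46 ribosomal protein genes on each array relative to the CD34- mean, as deposited and after quantile normalization, and the log2 ratio of the 3-prime to the 5-prime actin control probe set on the same arrays; each point is 1 array, CD34+ (red) left of CD34- (grey). CD34+ arrays 1 and 3 are the highest in the deposited panel at 0.67 and 0.48, and CD34+ arrays 1 to 3 lead the actin panel at 5.25, 4.56 and 3.97.

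From a mean log2 signal of 13 upwards the deposited difference was more positive in brighter genes, among ribosomal proteins and other genes alike. In the bin from 10 to 12 the median was -0.36 over 7 members and -0.12 over the other genes. From 13 to 14 it was 0.10 over 6 members and 0.04 over the others. The dimmest tested genes did not follow this order, since the other genes between 6 and 8 had a median of 0.28. The mean log2 signal of the tested members had a median of 14.44 (range 7.50 to 15.51), against 9.53 for all tested genes, and 29 members had a mean of at least 14, a level reached by the brightest 1.43% of tested genes. Of the 23 tested genes with a mean of at least 15, 12 were members and 11 were not. Their median differences were 0.45 for the members and 0.40 for the other genes, with 8 called higher in each set. After quantile normalization these medians were -0.01 for the members and 0.00 for the others. Between 14 and 15 the 17 members had a median of 0.15 and the 116 other genes 0.22. With members making up 12 of these 23 brightest genes, quantile normalization removes a shift of the top ranks whether or not it belongs to the ribosomal proteins, and the deposited values and the normalized ones cannot tell these apart.

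**Figure D3:**
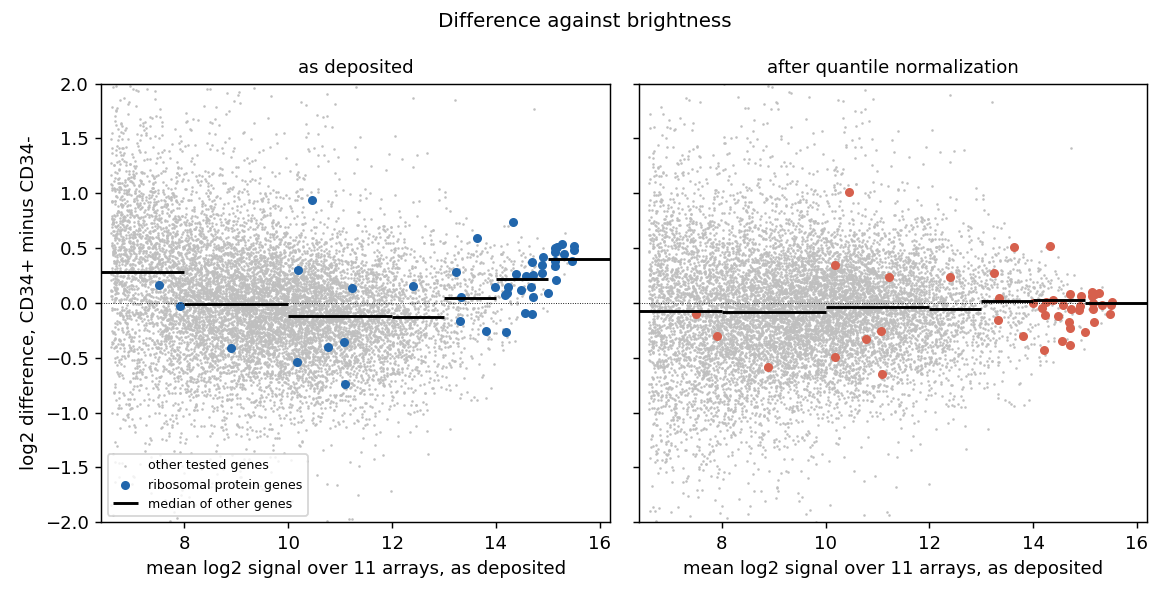
Log2 difference between CD34+ and CD34- arrays (y axis) against mean log2 signal over 11 arrays (x axis), as deposited and after quantile normalization, for all tested genes (grey) and ribosomal protein genes (coloured), with black lines at the median of the other genes in each brightness bin; larger differences of other genes fall outside the axis. At a mean of 15 or more, members and other genes sit together, at 0.45 and 0.40 as deposited and at -0.01 and 0.00 after quantile normalization.

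Rps25 was the 1 ribosomal protein gene called lower under both scalings. It encodes a small-subunit protein of the head region that is used when ribosomes are recruited to internal entry sites. Its deposited log2 signal was 10.21, 10.61, 10.60, 11.13 and 10.86 on CD34+ arrays 1 to 5, against a lowest value of 11.30, a median of 11.43 and a highest of 11.53 on CD34- arrays. All 5 CD34+ arrays lay below all 6 CD34- arrays, under both scalings. Among all tested genes such a gap without overlap, with CD34+ lower, was found for 7.37% as deposited and 7.74% after quantile normalization. The mean was 10.68 ± 0.34 in CD34+ (SD, n = 5) and 11.42 ± 0.09 in CD34- (SD, n = 6), a log2 difference of -0.74 (SE 0.15, limma adjusted p = 0.00339), or 0.599 times the CD34- level. After quantile normalization the difference was -0.65 (SE 0.14, limma adjusted p = 0.00755). The call held with each array left out in turn, with an adjusted p of at most 0.00979 from limma. The lowest CD34+ value was on array 1, which has the highest actin ratio, and without CD34+ arrays 1 and 2 the difference was -0.56 (limma adjusted p = 0.0109). Adjusted for the actin ratio it was -0.29 (limma adjusted p = 0.51) and no longer called.

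Rpl27a and Rpl37a, both proteins of the large subunit, were the members called higher under both scalings. Rpl27a had 11.79, 11.29, 10.79, 10.57 and 10.37 on CD34+ arrays 1 to 5, against a lowest value of 9.60, a median of 9.87 and a highest of 10.53 on CD34- arrays. Of its CD34+ arrays only array 5 lay inside the CD34- range. Its mean was 10.96 ± 0.58 in CD34+ (SD, n = 5) and 10.02 ± 0.38 in CD34- (SD, n = 6), a log2 difference of 0.94 (SE 0.25, limma adjusted p = 0.0157) and 1.91-fold. After quantile normalization the difference was 1.01 (SE 0.26, limma adjusted p = 0.0152). In mice a mutation of Rpl27a is known to disturb pigmentation and development, as mutations of several ribosomal protein genes do. The call of Rpl27a held with each array left out in turn, but it rested on CD34+ arrays 1 and 2 together: without them the difference was 0.55 (limma adjusted p = 0.0833). With equal array medians it was 0.46 (limma adjusted p = 0.0957), while all genes lay at -0.48.

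Rpl37a had 14.83, 15.26, 14.76, 14.59 and 14.21 on CD34+ arrays 1 to 5, against a lowest value of 13.76, a median of 13.94 and a highest of 14.30 on CD34- arrays. As for Rpl27a, CD34+ array 5 was the one that overlapped. The mean was 14.73 ± 0.38 in CD34+ (SD, n = 5) and 13.99 ± 0.24 in CD34- (SD, n = 6). The log2 difference was 0.74 as deposited (SE 0.17, limma adjusted p = 0.00733) and 0.52 after quantile normalization (SE 0.13, limma adjusted p = 0.0139). It was still called without CD34+ arrays 1 and 2, at 0.53 (limma adjusted p = 0.0325). With equal array medians it was 0.26 (limma adjusted p = 0.15) and not called, while all genes lay at -0.48. Its chosen probe set is of a kind that can share sequence with other transcripts. The other 2 tested probe sets of Rpl37a gave 0.66 (limma adjusted p = 0.261) and 0.99 (limma adjusted p = 0.0252) as deposited, so all 3 differences were positive. After quantile normalization these 2 gave 0.75 (limma adjusted p = 0.214) and 0.73 (limma adjusted p = 0.0802), neither called. Adjusted for the actin ratio, Rpl27a was at 0.13 (limma adjusted p = 0.893) and Rpl37a at 0.38 (limma adjusted p = 0.538).

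Rpl27, a large-subunit protein unrelated to Rpl27a in spite of its name, had a deposited log2 difference of 0.59 (SE 0.21, limma adjusted p = 0.054). After quantile normalization it was 0.51 (SE 0.16, limma adjusted p = 0.0358), and 5 of the 11 fits that leave out an array kept that call. CD34+ array 1 was the highest of its 11 deposited values at 14.82, against a highest CD34- value of 13.68. CD34+ arrays 4 and 5, at 13.45 and 13.66, lay inside the CD34- range. The normalized call was lost without CD34+ arrays 1 and 2, at 0.36 (limma adjusted p = 0.107), and with the actin ratio, at 0.08 (limma adjusted p = 0.909). The chosen probe set is of a kind that can share sequence with other transcripts. The other 2 tested probe sets of Rpl27 gave 0.10 (limma adjusted p = 0.77) and 0.37 (limma adjusted p = 0.223) after normalization, neither called.

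The other 8 deposited calls were all small-subunit genes among the brightest on the array, with means between 15.14 and 15.51: Rps2, Rps4x, Rps7, Rps14, Rps18, Rps20, Rps28 and Rps29. Rps14 is the gene whose reduced dosage underlies the anaemia of a human myelodysplastic syndrome, and Rps2, Rps7 and Rps18 are core proteins of the small subunit. Their deposited differences ran from 0.39 to 0.54, with adjusted p from 0.0282 to 0.0462 in limma. After quantile normalization the same genes lay between -0.02 and 0.10, with adjusted p from 0.194 to 0.976. Each of them also lost its deposited call when single arrays were left out: Rps20 kept it in 7 of 11 fits, Rps14 in 6, Rps4x in 5, Rps29 in 4 and Rps2, Rps7, Rps18 and Rps28 in 3 each.

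Rps18 shows the pattern in the values of its brightest probe set, although dimmer tested ones gave only 0.03 and 0.24 as deposited, neither called. As deposited it had 16.32, 15.83, 15.87, 15.37 and 15.42 on CD34+ arrays 1 to 5, against a lowest value of 15.05, a median of 15.31 and a highest of 15.51 on CD34- arrays. CD34+ arrays 1 to 3 were above every CD34- array, and arrays 4 and 5 were inside the CD34- range. The deposited difference was 0.48 (SE 0.16, limma adjusted p = 0.0375). After quantile normalization the CD34+ arrays had 15.42, 15.48, 15.57, 15.53 and 15.49, against 15.49 to 15.55 on CD34- arrays. The difference was then -0.01 (SE 0.05, limma adjusted p = 0.874). The spread also shrank: over these 8 genes the normalized SD on CD34+ arrays was 0.0168 to 0.118, since genes at the top ranks are set to nearly the same value on each array. Rps14, whose arrays overlapped as deposited, had a small gap after quantile normalization, with all 5 CD34+ arrays, at 15.16 to 15.21, above all 6 CD34- arrays, at 15.05 to 15.14. That difference was 0.10 (SE 0.05) and was not called (limma adjusted p = 0.194), and 6.31% of all tested genes had such a gap with CD34+ higher. As deposited no member had one, against 7.64% of all tested genes.

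**Figure D4:**
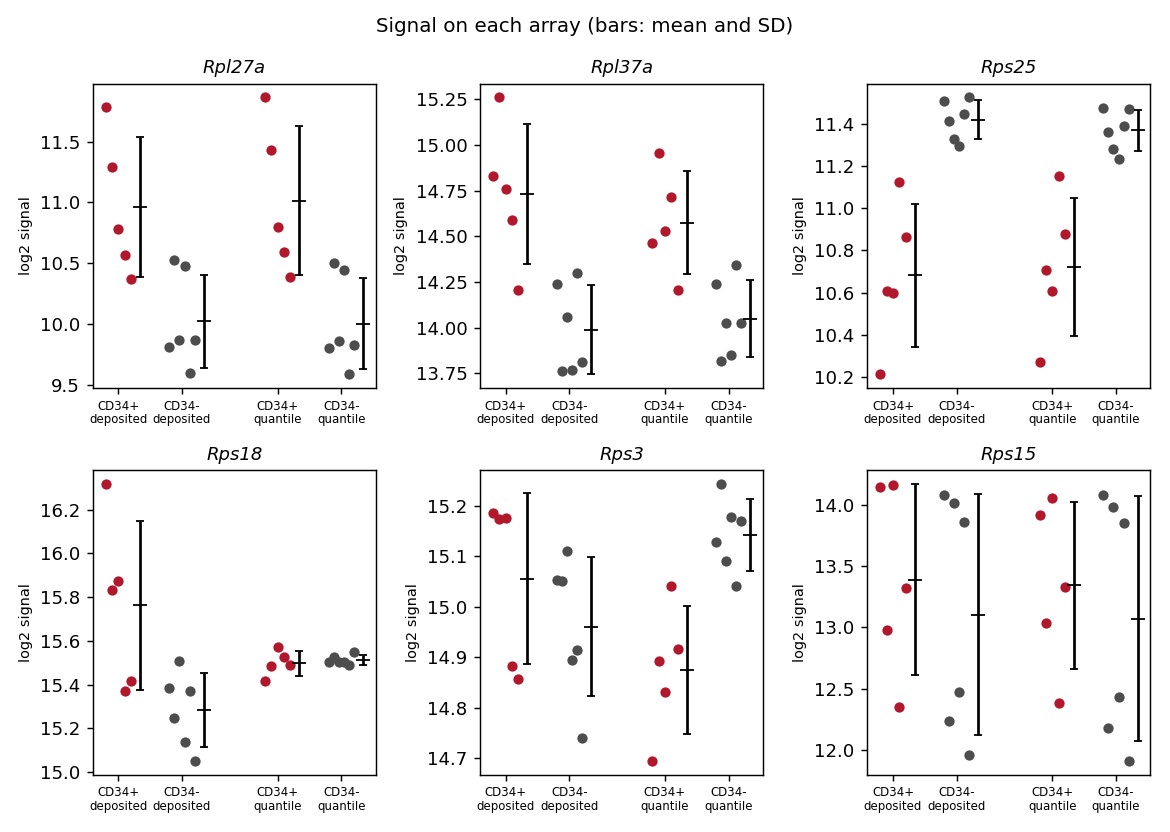
Log2 signal of Rpl27a, Rpl37a, Rps25, Rps18, Rps3 and Rps15 on each array (points), with CD34+ (red) left of CD34- (grey), as deposited and after quantile normalization; bars give the mean and SD of each group (n = 5 and n = 6). Rps25 keeps its groups apart under both scalings, Rps18 loses its deposited difference of 0.48 after quantile normalization, and Rps15 spans 11.96 to 14.08 within the CD34- arrays.

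Quantile normalization brought 5 members to the lower side that were not called as deposited: Rps3, Rps9, Rpl6, Rpl8 and Rplp0. Rps3, a small-subunit protein at the messenger entry that also acts in DNA repair and NF-kappaB signalling, had 14.70, 14.89, 14.83, 15.04 and 14.92 on CD34+ arrays 1 to 5 after normalization, against a lowest value of 15.04, a median of 15.15 and a highest of 15.24 on CD34- arrays. Only CD34+ array 4 reached the level of the lowest CD34- array. The normalized difference was -0.27 (SE 0.07, limma adjusted p = 0.0197), against a deposited 0.09 (SE 0.10, limma adjusted p = 0.53). A second, dimmer probe set of Rps3 was lower under both scalings, at -0.75 as deposited (limma adjusted p = 0.0173) and -0.69 after normalization (limma adjusted p = 0.0307).

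Rpl8, a conserved protein near the peptidyl transferase centre, had no overlap after quantile normalization, with CD34+ arrays at 14.17 to 14.57 and CD34- arrays at 14.60 to 14.84. Its normalized difference was -0.34 (SE 0.09, limma adjusted p = 0.0143), against a deposited -0.09 (SE 0.14, limma adjusted p = 0.67). Both Rps3 and Rpl8 kept the normalized call with every array left out in turn. Without CD34+ arrays 1 and 2 together Rps3 lost it, at -0.21 (limma adjusted p = 0.0613), and Rpl8 kept it, at -0.30 (limma adjusted p = 0.0497). Adjusted for the actin ratio neither was called, with Rps3 at -0.12 and Rpl8 at -0.33. The other 3 kept the normalized call in only some of the 11 fits that leave out an array. Rps9, at -0.43 (limma adjusted p = 0.0353), kept it in 4. Rplp0, at -0.38 (limma adjusted p = 0.0439), kept it in 3 and Rpl6, at -0.23 (limma adjusted p = 0.0493), in 2. The number of members called lower after normalization was 3 without CD34+ array 1 or without CD34- array 1, 3 or 4. Without both CD34+ arrays 1 and 2 it was also 3, in a fit that called 1835 genes, against 2291 with all 11 arrays.

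By subunit, as deposited, 8 of 22 small-subunit genes were called higher and 1 lower, with a median difference of 0.19, and 2 of 22 large-subunit genes were called higher and 0 lower, with a median of 0.20. These counts stand against 12.4% higher and 12.3% lower among all tested genes. Of the 12 members whose mean reached 15 on the log2 scale, 11 were of the small subunit and Rpl13a was of the large one. After quantile normalization 0 small-subunit genes were called higher and 3 lower, with a median of -0.02, and 3 large-subunit genes were called higher and 2 lower, with a median of -0.04, against 9% and 12% of all tested genes. The difference between the subunits was not tested.

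The acidic stalk, which binds the elongation factors, was represented by Rplp0, its base, and Rplp2. Neither was called as deposited: Rplp0 had a difference of -0.10 (SE 0.15, limma adjusted p = 0.64) and Rplp2 0.28 (SE 0.17, limma adjusted p = 0.236). After normalization Rplp2 was at -0.06 (limma adjusted p = 0.691). Rplp1, the partner of Rplp2, had only a probe set shared with other genes and was not analysed here.

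The members chosen for a role apart from the ribosome or in signalling were Rps6, Rpl11, Rps19, Rpl38, Rpl13a, Rpsa, Rps3, Rplp0 and Rplp2. None of them was called as deposited, and Rps3 and Rplp0 were called lower after quantile normalization. Rps6, whose protein is the phosphorylated target of the S6 kinases, had 10.52, 10.07, 10.70, 10.62 and 10.87 on CD34+ arrays 1 to 5, against a lowest value of 10.48, a median of 10.87 and a highest of 11.59 on CD34- arrays. The arrays overlapped, with a difference of -0.40 (SE 0.21, limma adjusted p = 0.171), and array signal says nothing of its phosphorylation. Rpl11, which binds Mdm2 and so stabilises p53 when ribosome assembly is disturbed, had a difference of 0.05 (SE 0.20, limma adjusted p = 0.867). Rps19, mutated in Diamond-Blackfan anaemia in humans, had -0.26 (SE 0.19, limma adjusted p = 0.345).

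Rpl38, needed for the translation of Hox messengers in the mouse embryo, had a deposited difference of 0.37 (SE 0.20, limma adjusted p = 0.192) and a normalized one of 0.08. Rpl13a, which in human monocytes leaves the ribosome to silence inflammatory messengers, had 0.38 as deposited (SE 0.14, limma adjusted p = 0.067) and -0.11 after normalization. Rpsa, the laminin-binding protein of the small subunit, had 0.34 (SE 0.17, limma adjusted p = 0.148) and -0.06 after normalization. All 3 are bright, and all 3 lay higher on CD34+ arrays 1 to 3 than on arrays 4 and 5 as deposited.

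Some paralogs of ribosomal proteins can be incorporated in place of the protein they resemble, whose gene is called the partner here. None of the tested paralogs was called under either scaling. Rps27l, a p53 target in human cells, had a mean of 12.49 ± 0.19 in CD34+ (SD, n = 5) and 12.33 ± 0.38 in CD34- (SD, n = 6), and its partner Rps27 had 7.59 ± 0.92 in CD34+ and 7.43 ± 0.59 in CD34-. Rpl22l1 differed by -0.17 (SE 0.13, limma adjusted p = 0.376) and Rpl22, which represses Rpl22l1 in mice, by 0.42 (SE 0.17, limma adjusted p = 0.0905). The normalized differences of this pair were -0.16 and 0.06.

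Rpl7l1 differed by 0.30 (SE 0.31, limma adjusted p = 0.501), with CD34+ array 1 at 11.88 and every other array between 9.58 and 10.35. Its partner Rpl7 differed by 0.26 (SE 0.15, limma adjusted p = 0.231). Rps4l was at -0.03 (SE 0.23, limma adjusted p = 0.94), while the X-linked Rps4x was among the bright genes with a deposited call. Rpl39 differed by -0.41 (SE 0.31, limma adjusted p = 0.339), and Rpl39l, a form most abundant in testis, was too dim to be tested.

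The brightness filter, which leaves out the dimmest 40% of genes, had its limit at a mean of 6.59. The 3 members outside it were Rpl39l at 5.75, Rpl3l (a muscle form of Rpl3) at 4.37 and Rps16 at 1.45. Rps16 is a core protein of every ribosome, so its value describes a probe set with almost no signal and not the gene's level. The nearest members inside were Rps27 at 7.50 and Rps4l at 7.91. A further 28 ribosomal protein symbols, among them Rpl3, Rpl5, Rpl10 and Rplp1, occurred only on probe sets shared by several symbols and were no members.

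Within the groups the members did not vary alike. The median SD over members was 0.375 on CD34+ arrays and 0.229 on CD34- arrays as deposited, against 0.365 and 0.223 over all tested genes. After quantile normalization it was 0.223 on CD34+ arrays and 0.159 on CD34- arrays for the members, against 0.383 and 0.214 for all tested genes. Rps15, a small-subunit protein, spread most on CD34- arrays, with 14.08, 12.24, 14.02, 12.48, 13.86 and 11.96 on CD34- arrays 1 to 6, and it had 14.14, 12.98, 14.17, 12.35 and 13.32 on CD34+ arrays 1 to 5. Its SD was 0.780 on CD34+ arrays and 0.982 on CD34- arrays, far above the difference of 0.29 (SE 0.44, limma adjusted p = 0.658).

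CD34- arrays 1, 3 and 5 were high for Rps15 and CD34- arrays 2, 4 and 6 low, CD34+ arrays 1, 3 and 5 were likewise above CD34+ arrays 2 and 4, and the same CD34- arrays stood high and low in the median member shift as deposited. Rpl41, the smallest ribosomal protein, had 14.85, 13.51, 14.83, 13.98, 14.71 and 12.95 on CD34- arrays 1 to 6, with the same CD34- arrays high and low, and 13.80, 13.51, 15.10, 14.31 and 14.34 on CD34+ arrays 1 to 5. Its difference was 0.07 (SE 0.35, limma adjusted p = 0.897). The labels give no batch, and the origin of this spread was not tested.

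Probe sets of the same gene often disagreed. Of the 105 probe sets, 94 passed the filter for probe sets, and 9 of the 20 genes with several of them had values of both signs as deposited. Taken one by one, 14 of the 94 were called higher and 3 lower as deposited, against 11% higher and 9.77% lower of all 20967 probe sets tested. After quantile normalization 3 were called higher and 7 lower, against 6.65% higher and 10.4% lower. The 48 probe sets not chosen for a gene had a median difference of 0.07 as deposited and -0.03 after normalization, so that the choice of the brightest probe set goes with the larger deposited shift.

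Rpl22 gave 0.42 with its brightest probe set, -0.24 with the next and -0.61 with the dimmest (limma adjusted p = 0.023). Rps20 gave 0.54 and 0.52 with its 2 bright probe sets, against -0.22 and -0.88 with 2 dim ones, of which neither was called. Rps18 gave 0.48 with its brightest probe set, against 0.03 (limma adjusted p = 0.89) and 0.24 (limma adjusted p = 0.45) with dimmer ones. Rps24, whose splicing differs between tissues, had 0.14 with its brightest probe set and 0.79 with a dim one (limma adjusted p = 0.0387). Rps25 and Rpl27a had a single tested probe set each, so their calls have no second probe set beside them. Both were dim for members, with a mean log2 signal of 11.08 and 10.45 against a member median of 14.44. Whether these probe sets follow the level of their gene was not tested. Of the 49 chosen probe sets 16 had the suffix _x_at, a kind that can share sequence with other transcripts, against 745 of all 18193. The suffix _s_at, of probe sets that can also match several transcripts, was on 1 of the 49 and on 1020 of all.

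Of 15 other tested messengers with a TOP tract, 2 were called higher and 2 lower as deposited, with a median of -0.03, near the shares of all tested genes (12.4% and 12.3%). After quantile normalization 0 were called higher and 3 lower, with a median of -0.13, against 9% and 12% of all genes. Eef2, the elongation factor that moves the ribosome along the messenger, fell by 0.82 on the log2 scale as deposited (SE 0.17, limma adjusted p = 0.00492) and by 0.88 after normalization (limma adjusted p = 0.00903). Hnrnpa1, a splicing factor, fell by 0.56 (limma adjusted p = 0.0146) and by 0.48 after normalization (limma adjusted p = 0.0373). The 2 bright genes Tpt1, a growth-related protein, and Eef1a1, which brings aminoacyl-tRNA to the ribosome, were called higher as deposited only: Tpt1 was at 0.63 (limma adjusted p = 0.0295) and Eef1a1 at 0.39 (limma adjusted p = 0.0373) as deposited, but at 0.14 and -0.06 after normalization, with neither called.

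Of 10 tested genes that import or guard new ribosomal proteins, 0 were called higher and 4 lower under either scaling, against 12.3% lower as deposited and 12% lower after normalization among all genes, with a median of -0.16 as deposited and -0.22 after normalization. Ipo7, an importin that carries ribosomal proteins into the nucleus, fell by 1.12 as deposited (SE 0.21, limma adjusted p = 0.00277), and the importin Ipo5 fell by 0.62 (limma adjusted p = 0.00553). Nap1l1, a histone chaperone, fell by 0.93 (limma adjusted p = 0.00816), and Tsr2, the escort of Rps26, fell by 0.44 (limma adjusted p = 0.0427), a call that held in 3 of the 11 fits with an array left out.

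Of 14 tested genes of mTOR signalling and TOP control, 1 was called higher and 3 lower as deposited, with a median of -0.20, against 12.4% and 12.3% of all genes. After normalization 1 was higher and 1 lower, with a median of -0.25, against 9% and 12% of all genes. Akt2 fell by 0.76 (SE 0.13, limma adjusted p = 0.00151) as deposited and by 0.80 after normalization. Tsc1, an inhibitor of mTOR, was higher by 0.53 (limma adjusted p = 0.0234) as deposited and after normalization (limma adjusted p = 0.0316). Larp1, which binds the TOP tract, was at -0.49 as deposited (limma adjusted p = 0.0227) and at -0.39 after normalization (limma adjusted p = 0.0648). Mdm2, the p53 ligase bound by free ribosomal proteins, was at -0.48 as deposited (limma adjusted p = 0.0488), a call that held in 3 of the 11 fits with an array left out, and at -0.51 after normalization (limma adjusted p = 0.0533).

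The proteins of the mitochondrial ribosome, a separate set encoded in the nucleus and far less bright, gave the same counts under both scalings, close to or below the shares of all genes. Of 76 tested, 5 were called higher and 9 lower with a median of -0.05, as deposited (12.4% and 12.3% of all genes) and after quantile normalization (9% and 12%). The 5 higher genes were shared between the scalings, and 7 of the 9 lower ones. Mrpl50 fell by 1.04 (SE 0.16, limma adjusted p = 0.000668), while Mrpl44 was higher by 0.64 (limma adjusted p = 0.00148), Mrps36 by 0.76 (limma adjusted p = 0.0048) and Mrpl39 by 0.50 (limma adjusted p = 0.00493), each as deposited.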

How the data were processed

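Total RNA was measured on single-channel Affymetrix arrays, 5 of CD34+ and 6 of CD34- cells, grouped by sample title. The authors deposited 1 log2 value per probe set and array, and per the submitters' processing notes used MAS5, with no version or settings given in the sources used here. That the scale is log2 was read from the values: the trimmed mean of the linear signal was 500.002 to 500.004 on every array. MAS5 brings arrays to a common mean and not to a common distribution, so that bright genes may shift together.

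The values were used as deposited and after quantile normalization. Of 45101 probe sets, 64 are controls, 34945 have 1 symbol, 932 several and 9160 none. The 34945 were named through the platform annotation, 34741 of them by RefSeq identifiers (GRCm38.p6). The dimmest 40% of genes were left out. limma 3.58.1 in R 4.3.3 was fitted to all 10916 remaining genes with variance moderated along intensity (prior df of 5.5) and p-values adjusted by Benjamini-Hochberg over all of them, and was tested on simulated data. Differences are CD34+ minus CD34-, with a median standard error of 0.187, and precision is limited by how few arrays there are. The adjusted p of single probe sets comes from a fit of every probe set by itself.

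Members and gene lists were chosen with earlier results of these data known. Members were named if called with the same sign under both scalings, as a paralog or its partner, for a role apart from the ribosome, or as nearest to the filter (24 members), and for each other list up to 4 called genes by smallest p (16 genes). Other members were named after their values were seen. No 2 arrays were identical, with correlations between arrays of 0.829 to 0.931. Alternatives were other scalings, filters, offsets, probe set choices, array weights, moderation settings, a stricter threshold, an exact rank-sum test, a block for replicate number, a covariate for the actin ratio and arrays left out. The block, arrays 1 and 2 left out and every probe set were also run after quantile normalization, an addition made after the data were seen. Protein sequences were not used here.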

Additional observations from a re-analysis of the deposited data

Results flagged for a closer look

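For 2 of 72 sets of values examined (35 members and the median over all members, in each fraction), a single array lay far from the others of its fraction, on the deposited log2 scale and by Dixon's criterion, which chance alone meets in about 1 of 20 such sets. Rps19 had 13.07 on CD34+ array 1 and 13.73 to 13.91 on the other CD34+ arrays. Rpl22l1 had 12.88 on CD34+ array 1 and 13.22 to 13.36 on the other CD34+ arrays. CD34+ array 1 has the highest actin ratio, 5.25, and the part of RNA length in these values was not tested.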

How the results depend on the processing

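The cause of each move below was not tested except where the setting itself brings it about. As deposited, limma called 10 members higher and 1 lower, among 2697 genes called. The counts of members called higher and lower were 3 and 6 after quantile normalization, and 0 and 12 with equal array medians, where the member median was -0.29 and 5611 genes were called. The number called higher was 2 with no filter (2665 genes called) and 2 with the mean of a gene's probe sets (1756 genes). It was 3 with no intensity trend (2578 genes) and 2 with array weights (2753 genes). It was 1 at an adjusted p under 0.01 (1004 genes) and 1 without CD34+ arrays 1 and 2 (1822 genes). With probe sets chosen by suffix 6 were higher and 2 lower, and with every probe set by itself 3 were lower and 4344 probe sets were called. The exact rank-sum test called 0 higher and 2 lower, and the fit with the actin ratio 0 and 0 (126 genes). Leaving out 1 array gave 2 to 14 higher, 1 lower, a median of 0.10 to 0.28 and 1865 to 2789 genes. After quantile normalization (3 higher, 6 lower, 2291 genes) the counts were 1 and 3 without CD34+ arrays 1 and 2 (1835 genes). They were 0 and 0 with the actin ratio (113 genes). With every probe set by itself 3575 probe sets were called. With 1 array left out, 2 to 3 members were higher, 3 to 6 lower and 1538 to 2448 genes called. The labels do not say that a shared replicate number pairs arrays, so the numbers were not taken as pairs. The deviations of same-numbered arrays correlated at 0.02 to 0.19. Arrays with different numbers were not compared in this way, so these values cannot decide whether the numbers are pairs. With the replicate number as a block 9 members were higher and 1 lower (median 0.15), and 2 and 4 after quantile normalization, where Rpl37a (0.52, limma adjusted p = 0.0584), Rps3 (-0.26, limma adjusted p = 0.054) and Rpl6 (-0.25, limma adjusted p = 0.0649) lost their calls.

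Signs of several bright members differed with the setting. After quantile normalization Rps3 was at -0.27, Rpl6 at -0.23, Rps4x at -0.016 and Rps18 at -0.014. With equal array medians the median of all genes itself was at -0.48, and the signs there follow from that shift: Rps3 was at -0.39, Rpl6 at -0.43, Rps4x at -0.038, Rps2 at -0.020, Rps7 at -0.10 and Rps18 at -0.0009. With the actin ratio as a covariate Rps18 was at -0.019, Rps28 at -0.039, Rps29 at -0.042 and Rps2 at -0.0047. Rps20 was at -0.0097 with the mean of its probe sets and at -0.88 with the probe set chosen by suffix, where Rps3 was at -0.75. Rpl27a was at 2.34 with the mean of its 2 probe sets, of which the other is dim. Over the named members and all settings other than leaving out 1 array, 384 values kept their direction and their side of the threshold, and 99 lost a call and 12 gained one with the sign kept. The sign turned for 17 with a call in at least 1 of the fits compared and for 61 with a call in neither. Detection calls were not used, and low signal does not show that a messenger was missing.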
